A study of Mus musculus with 44 samples.

Results

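The libraries described here follow chromatin accessibility in mouse embryos that lack Oct4, the protein of the *Pou5f1* gene, between the late morula and the early inner cell mass (ICM). They are the 3 *Pou5f1*-KO late morula libraries and the 4 *Pou5f1*-KO early ICM libraries, chosen by their labels, and make up 7 of the 44 libraries of the series. All 152393 peaks of the series were used. KO embryos lacked the maternal and the zygotic *Pou5f1*: *Pou5f1* flox/flox; *Zp3*-Cre females, in which Cre acts in the oocyte, were mated with *Pou5f1* +/mKO2 males, and embryos with the mKO2 reporter were taken as KO. Their reporter-negative littermates (Ctrl, 3 late morula and 4 early ICM libraries) lacked the maternal copy only, so the maternal deletion was common to both genotypes. Females were superovulated, and all libraries carry the label B6C3F1. Each library was made from a pool of 20 to 40 embryos.

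Late morulae were whole embryos at E3.25 and were not treated with an inhibitor. Early ICMs stood for E3.75, and came from embryos collected at E2.5 and cultured with 1 µM PD0325901, a MEK inhibitor (MEKi), before the ICM was isolated by immunosurgery, which destroys the outer trophectoderm with antibody and complement. The step from late morula to early ICM therefore joins developmental time, culture, MEKi and the removal of the outer cells, and these cannot be told apart, in KO or in Ctrl. The Ctrl step passed through the same treatments, so the comparison of the KO step with the Ctrl step was made within each treatment. In these bulk libraries, fewer cells of a type and less accessible DNA per cell cannot be told apart. The pools are separate libraries, and the p-values measure the spread between them.

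The ICM is the inner group of cells of the blastocyst and gives rise to the pluripotent epiblast and to the primitive endoderm, whereas the outer cells become the trophectoderm. Oct4 is a POU-domain factor that binds DNA, often together with the HMG-box factor Sox2 at a composite OCT-SOX motif, and is needed for a pluripotent epiblast. Other factors of these cells bind their own motifs: Klf, Esrrb and Tfap2c in pluripotent and early embryonic cells, Gata factors in primitive endoderm and trophectoderm, and Tead factors, the DNA-binding partners of Yap1 in the Hippo pathway, in early blastomeres and trophectoderm. ATAC-seq reads open chromatin through the insertions of the Tn5 transposase, and a peak that gains insertions is called opened here, and a peak that loses them closed.

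The sequences below are windows of 40 bases cut around motif words in peaks to which the results return, read from GRCm38 (mm10), with the word in capitals. The first set holds OCT-SOX or OCT words in peaks that rose from the late morula to the early ICM in Ctrl and were not called in KO, and the *Pou5f1* CR4 enhancer, which was open in every group.
*Utf1* enhancer, chr7:139945670-139945709, minus strand, OCT-SOX: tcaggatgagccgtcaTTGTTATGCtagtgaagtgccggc
*Pecam1* enhancer, chr11:106724606-106724645, minus strand, OCT-SOX: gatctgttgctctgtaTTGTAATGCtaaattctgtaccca
*Sox2* SRR2 enhancer, chr3:34654036-34654075, plus strand, OCT-SOX: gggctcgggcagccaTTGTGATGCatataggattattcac
*Skil*, chr3:31089545-31089584, minus strand, OCT-SOX: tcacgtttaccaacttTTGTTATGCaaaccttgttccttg
*Il6st*, chr13:112462553-112462592, minus strand, OCT: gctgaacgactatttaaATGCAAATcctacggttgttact
*Pou5f1* CR4 enhancer, chr17:35504038-35504077, minus strand, OCT-SOX: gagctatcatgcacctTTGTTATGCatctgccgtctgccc

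The next set holds words in peaks that rose without Oct4, and the last line a GATA word in a peak that rose in KO and was not called in Ctrl.
*Lifr*, chr15:7090500-7090539, plus strand, TEAD: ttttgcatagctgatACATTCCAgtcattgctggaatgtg
*Gm37719*, chr3:61269008-61269047, plus strand, TEAD: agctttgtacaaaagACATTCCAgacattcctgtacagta
*Sap30*, chr8:57490144-57490183, plus strand, SOX: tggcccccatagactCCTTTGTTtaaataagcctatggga
*Sept7*, chr9:25241023-25241062, plus strand, GATA: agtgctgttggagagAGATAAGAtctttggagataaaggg

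Values are rlog values, a log2 scale made by the authors from insertion counts, and a step is the mean of the early ICM libraries minus the mean of the late morula libraries. Library medians over all peaks lay between 2.40 and 2.63 in the 14 libraries. Replicates of a group correlated with r between 0.795 and 0.885 across peaks. The depth of the libraries is unknown, and the rlog transformation shrinks differences at weak peaks. The *Pou5f1* locus was read first. The peak at its start site, chr17:35505888-35506087, had rlog values of 3.72, 3.96 and 4.55 in KO late morulae and 4.56, 5.04, 4.75 and 3.07 in KO early ICMs. Ctrl values were 4.29, 4.24 and 2.57 in late morulae and 5.46, 5.84, 5.60 and 5.01 in early ICMs. Every Ctrl early ICM library lay above every Ctrl late morula library, while the KO groups overlapped; the KO step was 0.28 ± 0.35 (SE; adjusted p = 0.622 by limma) and the Ctrl step 1.78 ± 0.35 (adjusted p = 5.33e-05), but the difference of the steps, -1.50 ± 0.50, did not pass the test (adjusted p = 0.186). The floxed part of the gene is removed in the oocyte in both genotypes and the mKO2 allele carries insertions upstream of and inside *Pou5f1*, so these peaks do not test the genotype.

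Chromatin opened and closed at many sites without Oct4. Of all peaks, 12691 were higher in the KO early ICM than in the KO late morula (8.33% of all peaks) and 15474 were lower (10.2%), at an adjusted p under 0.05 by limma. The median step was 1.50 in the peaks that rose and -1.53 in those that fell. The Ctrl step called 22384 peaks higher (14.7% of all peaks) and 22839 lower (15.0%). Leaving out KO late morula 1 lowered the KO counts to 7547 and 9559, and leaving out KO late morula 3 lowered the count of closed peaks to 9674. The balance of opening and closing in KO depended on the scaling: 45.1% of the called peaks were higher as deposited, 49.8% after quantile normalization and 58.4% with each library centred on its median, which shifts every KO step by 0.13. Among the stronger peaks, those whose mean rlog was not below the median over peaks, the share was 60.7%, but that mean includes the compared libraries, so the step itself helps to sort the peaks.

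Many of the peaks that moved without Oct4 were also called with it. Of the peaks called higher in KO, 60.5% were also called higher in Ctrl, and these 7680 peaks made up 34.3% of the Ctrl list. Of the peaks called lower in KO, 56.8% were also called lower in Ctrl, and these 8789 peaks made up 38.5% of the Ctrl list. Calls in opposite directions were few: 21 peaks rose in Ctrl and fell in KO, and 17 did the reverse. The KO step and the Ctrl step share no library, but KO and Ctrl libraries of a stage with the same number deviated from their group means together (r between 0.109 and 0.192 across peaks), so the steps are not fully independent. Peaks that opened in Ctrl had a median KO step of 0.85 and 92.0% of them had a positive KO step, against 48.4% of all peaks. For peaks that closed in Ctrl, the median KO step was -1.01 and 93.5% had a negative one. Read the other way, peaks called higher in KO had a median Ctrl step of 1.24, and those called lower a median of -1.26. Another 4994 peaks rose and 6664 fell in KO without a call in Ctrl, with median Ctrl steps of 0.57 and -0.68. Without KO late morula 1, 5030 of 7547 peaks that rose in KO also rose in Ctrl, and 5437 of 9559 that fell also fell in Ctrl. Without Ctrl late morula 1 these were a minority, at 6015 of 12563 and 6642 of 15226. For closing they were also a minority without Ctrl late morula 2 (7261 of 15168), Ctrl late morula 3 (7049 of 15212), Ctrl early ICM 2 (7564 of 15382) or Ctrl early ICM 4 (7602 of 15437).

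**Figure D1:**
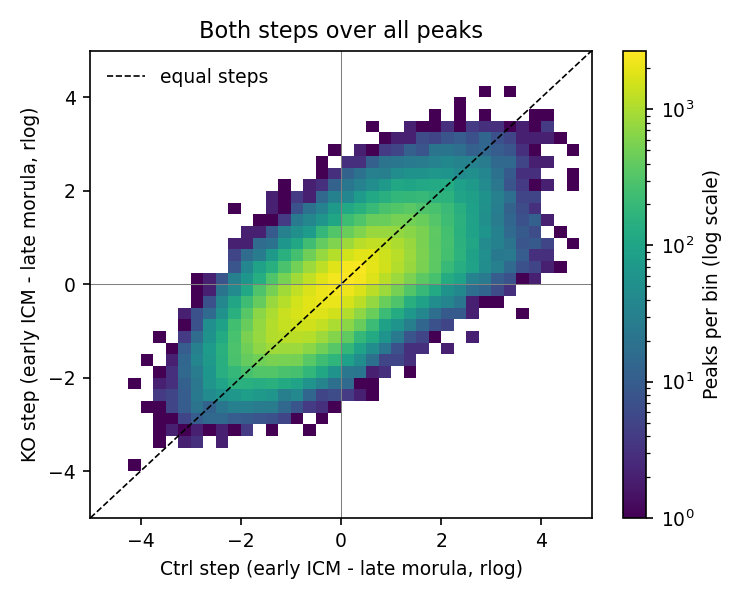
Each of the 152393 peaks by its Ctrl step (horizontal axis, rlog) and its KO step (vertical axis, rlog), counted in square bins with a logarithmic colour scale for the number of peaks per bin; the dashed line marks equal steps. The cloud runs along the line, and at large positive Ctrl steps many peaks lie below it, down to KO steps near 0.

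Few of the peaks that opened or closed without Oct4 lay at promoters, as was true of all peaks. Of the peaks that rose, 5.68% lay within 100 bp of a transcription start site (TSS), and of those that fell 2.13%, against 7.77% of all peaks. Peaks that rose had a median GC content of 47.0%, and those that fell and all peaks 50.0%. Introns held 46.3% of the peaks that rose and 53.8% of those that fell, against 47.4% of all peaks, and intergenic DNA held 46.0% and 40.1%, against 42.3%. Other KO libraries of the series, the morula at E2.75 and the late ICM at E4.5, span the same path. Late ICMs were also cultured with MEKi and isolated by immunosurgery, and morulae were not. These libraries therefore repeat the treatments along with the developmental time. Peaks that rose in the KO step had a median of 1.16 in KO late ICM minus KO morula and were higher in 91.4% of cases, against a median of 0.10 and 53.7% for all peaks. Peaks that fell had a median of -1.25, with 83.4% of the same sign.

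To place each library on the way to the ICM, its profile over all peaks was projected on an axis that none of these 14 libraries defined, the difference between *Sox2* Ctrl early ICMs and *Pou5f1* Ctrl morulae, and scaled so that the mean of Ctrl late morulae is 0 and that of Ctrl early ICMs 100. The *Sox2* Ctrl embryos come from another line and lacked the maternal *Sox2* only, so the axis also crosses lines. It also runs from untreated whole morulae at E2.75 to ICMs cultured with MEKi and isolated by immunosurgery. The axis thus joins time, culture, MEKi and isolation, as the steps do. Without Oct4, late morulae scored -22.3, -31.1 and -27.2, with a mean of -26.8 ± 4.40 (SD, n = 3). KO early ICMs scored 38.7, 68.9, 64.0 and 62.8, with a mean of 58.6 ± 13.5 (SD, n = 4). Ctrl late morulae scored -5.16, 4.01 and 1.15 and Ctrl early ICMs 85.2, 104, 99.2 and 111. The KO libraries thus lay below every Ctrl library of their stage, before the step and after it, and KO early ICMs lay between the Ctrl stages.

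Measured along this axis, the KO step was 85.5 ± 7.22 (SE) and the Ctrl step 100 ± 6.17. Each was the largest separation the libraries allow (exact permutation test, two-sided, p = 0.0286 for each, the smallest possible). The difference of the steps, KO minus Ctrl, was -14.5 ± 9.50 (SE). Permuting genotypes within stages gave p = 0.511 (exact permutation, 1400 splits). That permutation assumes no genotype difference at either stage, and the gaps at both stages, given next, widen its range. It therefore cannot decide whether the steps were equal. At the late morula the difference KO minus Ctrl was -26.8 ± 3.71 (SE), where 3 against 3 libraries cannot give less than p = 0.1 (exact permutation, p = 0.1). At the early ICM it was -41.4 ± 8.74 (exact permutation, p = 0.0286, the smallest that 4 against 4 allows). Between libraries with the same number, KO was lower in 7 of 7 pairs, with differences of -17.1, -35.1 and -28.3 at the late morula and of -46.4, -35.2, -35.2 and -48.6 at the early ICM. Permuting the stage over these 7 gaps, a test chosen after they were seen, gave the same difference of -14.5 ± 6.34 (SE) with p = 0.0286 (exact permutation, 35 splits, the smallest possible). The gaps of the stages nearly touch, at -35.1 and -35.2. KO early ICM 1 was the lowest of its group, and without it the KO step was 92.1% of the Ctrl step. KO morulae scored -54.6 ± 11.5 (SD, n = 3) and KO late ICMs 75.7 ± 10.6 (SD, n = 4), with a highest value of 83.2, below every Ctrl early ICM and every Ctrl late ICM library.

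**Figure D2:**
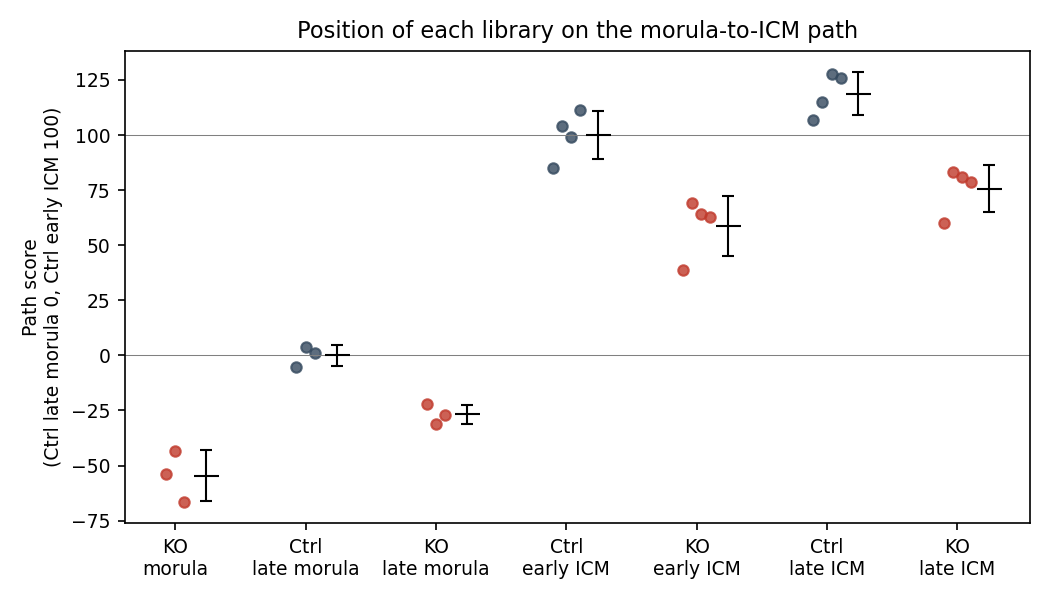
Path score (vertical axis, percent of the mean Ctrl step) of each library, with Ctrl in blue and KO in red; points are libraries, and bars give mean ± SD of the 3 or 4 libraries of a group. KO late morulae lie between -31.1 and -22.3, below all Ctrl late morulae, and KO early ICMs between 38.7 and 68.9, below all Ctrl early ICMs.

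Opening and closing were then measured apart, on the peaks that were called on the same independent axis. Of the 20716 peaks that opened on it, 25.7% were called higher in the KO step and 45.9% in the Ctrl step, against 8.33% and 14.7% of all peaks. The median step was 0.61 in KO and 0.92 in Ctrl, so the KO value was 66.5% of the Ctrl value. Mean rlog values over these peaks were 2.37, 2.40 and 2.41 in KO late morulae and 2.85, 3.14, 3.14 and 3.15 in KO early ICMs. Ctrl values were 2.53, 2.70 and 2.63, and then 3.47, 3.63, 3.57 and 3.74. KO was below Ctrl without overlap at both stages, and the gap in means was -0.23 at the late morula and -0.53 at the early ICM.

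Closing was measured in the same way. The 21772 peaks that closed on the axis had a median step of -0.93 in KO and -0.92 in Ctrl (101%), and 35.3% were called lower in KO and 40.7% in Ctrl, against 10.2% and 15.0% of all peaks. Their mean rlog was 2.96, 3.16 and 3.10 in KO late morulae and 2.32, 2.03, 2.12 and 2.14 in KO early ICMs. Ctrl libraries had 2.80, 2.80 and 2.78, and then 2.01, 1.83, 1.87 and 1.79. KO therefore started 0.29 above Ctrl and ended 0.27 above it, with no overlap between KO and Ctrl at either stage. The share moved with the scaling: it was 93.6% with median centring, where the share for opening was 75.7%. Quantile normalization gave 96.8% for closing and 69.5% for opening. Among the stronger peaks, as sorted above, the shares were 83.0% for closing and 79.5% for opening, and among the weaker ones 113% and 46.1%, so the gap between opening and closing was small in the stronger peaks.

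**Figure D3:**
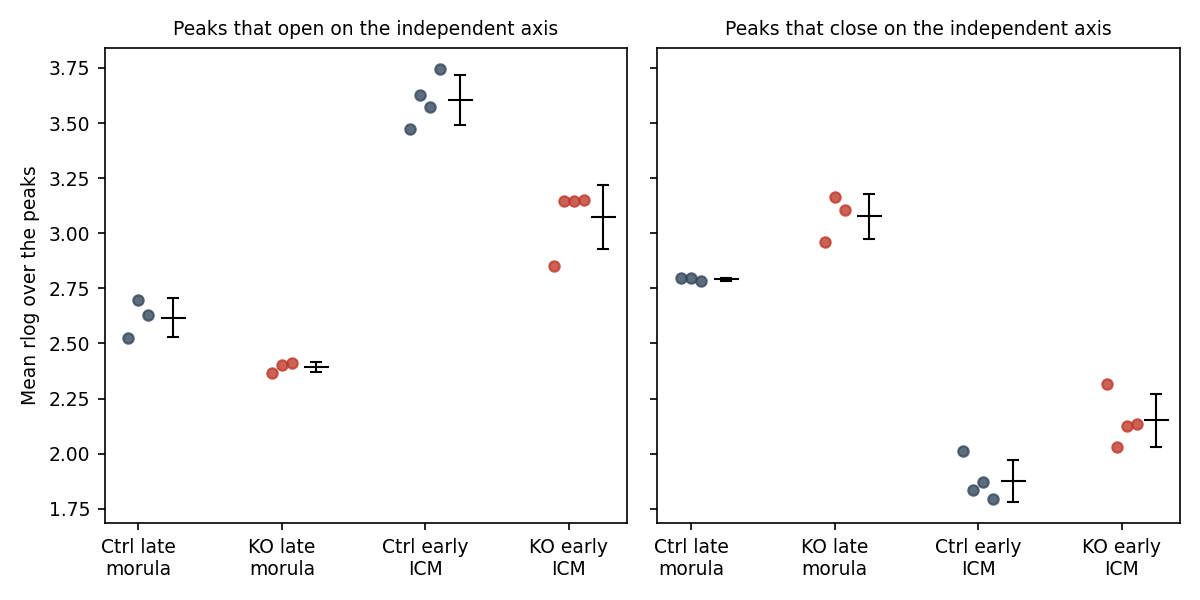
Mean rlog (vertical axis) of each library over the 20716 peaks that opened (left) and the 21772 that closed (right) on the independent axis, with Ctrl in blue, KO in red, and bars for mean ± SD. In the left panel KO early ICMs, at 2.85 to 3.15, stay below Ctrl early ICMs, at 3.47 to 3.74; in the right panel the means fall by 0.93 in KO and 0.91 in Ctrl, and KO lies above Ctrl at both stages.

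The opened and closed peaks held different shares of sequence words. For 11 factor families a word with 8 fixed letters was searched on both strands with no mismatch, and the share of all 200 bp peaks that hold it follows each: OCT-SOX TTGTNATGC (0.817%), OCT ATGCAAAT (2.39%), SOX CCTTTGTT (1.53%), KLF CCCCACCC (7.01%), ESRRB CAAGGTCA (5.95%), GATA (AGATAAGA, 3.15%), TEAD ACATTCCA (2.91%), TFAP2C GCCTNAGGC (1.92%), EOMES AGGTGTGA (2.62%), CDX GCAATAAA (1.06%) and CTCF CAGGGGGC (1.59%). The OCT-SOX word can overlap the end of the SOX word, as it does in the CR4 enhancer. A word is a match of letters and not a bound site. Among the peaks that rose without Oct4, 3.70% held the SOX word, 10.4% the ESRRB word, 6.31% the GATA word, 5.66% the TEAD word, 3.55% the TFAP2C word and 1.23% the OCT-SOX word. The other words were below their share of all peaks: OCT 2.14%, KLF 6.06%, EOMES 1.08%, CDX 0.780% and CTCF 1.00%. Peaks that rose in Ctrl had shares of 3.32% for SOX, 12.9% for ESRRB, 3.39% for GATA, 3.31% for TEAD, 3.37% for TFAP2C and 2.60% for OCT-SOX. Among the peaks that fell without Oct4, 5.34% held the EOMES word, 1.33% the CDX word and 0.310% the OCT-SOX word. Each remaining word was below its share of all peaks there.

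On the peaks that opened on the independent axis, the size of the KO step relative to the Ctrl step differed between words. The 446 with an OCT-SOX word had a median KO step of 0.67 and a Ctrl step of 1.84 (36.4%), and 22.9% were called higher in KO and 79.4% in Ctrl. Their mean rlog was 1.19, 1.02 and 1.30 in KO late morulae and 1.84, 1.91, 1.81 and 2.16 in KO early ICMs. Ctrl libraries went from 1.46, 1.75 and 1.72 to 3.31, 3.49, 3.30 and 3.86. The highest KO early ICM stayed below the lowest Ctrl early ICM by more than 1 rlog unit. Of the 446 peaks, 204 were among the stronger ones, as sorted above, and there the KO share of the Ctrl step was 50.4%. Over all stronger opened peaks it was 79.5%. Of the other families, the 1023 peaks with an OCT word had medians of 0.49 and 1.16 (41.9%), the 1747 with an ESRRB word 0.80 and 1.37 (58.4%), and the 485 with a SOX word 0.89 and 1.49 (59.7%). The 225 with an EOMES word had 0.52 and 0.97 (53.8%), the 1272 with a KLF word 0.60 and 0.96 (62.0%), and the 676 with a TFAP2C word 0.80 and 1.16 (69.3%).

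In contrast, the 799 such peaks with a GATA word had a median step of 0.93 in both genotypes (99.9%). Their mean rlog was 2.39, 2.45 and 2.45 in KO late morulae and 3.08, 3.36, 3.43 and 3.66 in KO early ICMs, and it went from 2.54, 2.77 and 2.62 to 3.61, 3.45, 3.50 and 3.78 in Ctrl. Here the early ICM libraries of both genotypes overlapped. Among the stronger peaks with a GATA word the KO share of the Ctrl step was 113%. The 789 peaks with a TEAD word had medians of 0.88 in KO and 0.94 in Ctrl (93.5%), those with a CDX word 0.43 and 0.45, and those with a CTCF word 0.54 and 0.62. Peaks with none of the words, 13739 in number, had medians of 0.58 and 0.82 (70.2%). Closed peaks gave another order. Their median KO step was -0.68 with a TEAD word (63.9% of the Ctrl step), -0.78 with an OCT word (74.5%) and -0.69 with a GATA word (76.7%). It was -0.73 with an OCT-SOX word (81.1%, 82 peaks) and -0.83 with an ESRRB word (145%). The share was 81.8% with a CDX word, 87.4% with EOMES, 97.2% with SOX, 98.4% with KLF, 109% with TFAP2C and 113% with CTCF. These medians are descriptions over peaks that share the same libraries, and they carry no test.

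**Figure D4:**
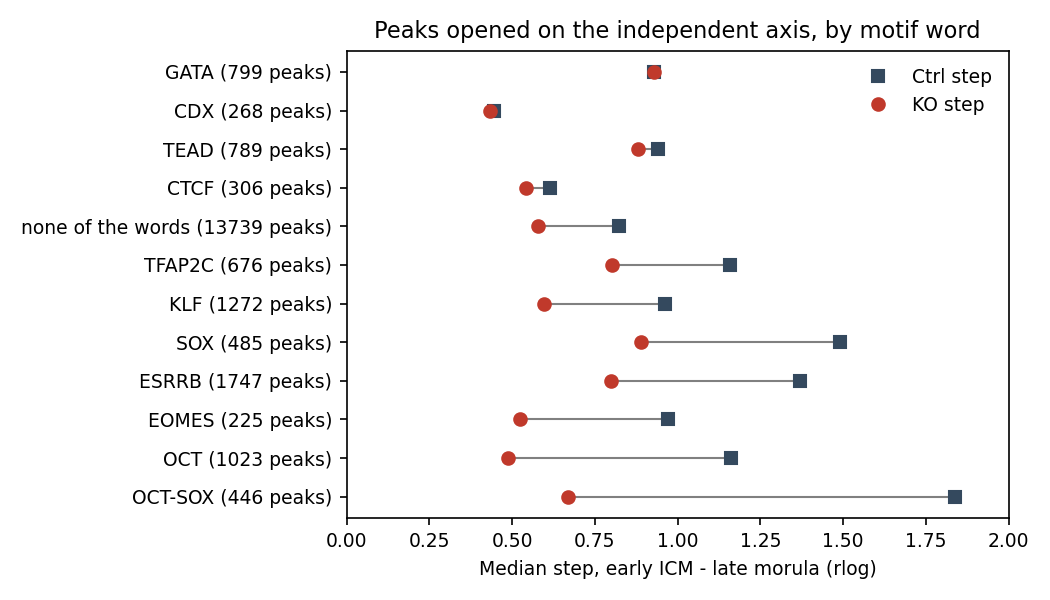
Median step (horizontal axis, rlog) in KO (red circles) and Ctrl (blue squares) of the peaks that opened on the independent axis, by the motif word they hold, ordered by the KO share of the Ctrl value. The gap is widest for OCT-SOX, from 0.67 to 1.84, and the points for GATA lie on each other at 0.93.

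The difference between the steps was tested peak by peak, in the same limma fit. The KO step was more negative than the Ctrl step at 444 peaks (0.291% of all peaks) and more positive at 84 (0.0551%), and at an unadjusted p under 0.05 at 8958 and 6594. KO and Ctrl libraries of a stage deviated together by number, and with these pairs as a block, a fit chosen after the data had been seen, the counts were 1053 and 408 and held all of the 444 and all of the 84. The counts also moved when a library was left out: without any one of the 6 late morula libraries, Ctrl early ICM 4 or KO early ICM 3, between 95 (without KO late morula 3) and 268 peaks were more negative, and without any late morula library, Ctrl early ICM 2 or 4, or KO early ICM 3 or 4, between 8 (without KO late morula 3) and 45 were more positive. The 444 peaks had a median step of 0.10 in KO and 2.85 in Ctrl, and a median group mean of 1.53 in KO early ICMs and 4.23 in Ctrl early ICMs. The 84 peaks had medians of 0.71 in KO and -1.64 in Ctrl. Of the 444, 268 were among the peaks that opened on the independent axis (1.29% of those peaks). Another 24 were among those that closed (0.110%), against 0.291% of all peaks. Of the 84, 6 were among the peaks that opened (0.0290%) and 14 among those that closed (0.0643%), against 0.0551% of all peaks. The OCT-SOX word was in 39 of the 444 (8.78%) and in 1 of the 84, the ESRRB word in 83 of the 444 (18.7%), and the GATA word in 1.35% of the 444 and 8 of the 84 (9.52%). The TEAD word was in 7 of the 84 (8.33%).

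None of the 5 peaks with the most negative differences was called in the KO step. The first, nearest the TSS of *Gm38061* (chr11:31736802-31737001, intergenic), had 2.54, 1.33 and 1.41 in KO late morulae and 0.87, 0.66, 1.98 and 0.83 in KO early ICMs. In Ctrl it went from 0.42, 1.07 and 1.04 to 4.40, 3.78, 4.96 and 4.44. The difference was -4.22 ± 0.70 (SE; adjusted p = 0.000506). For the other 4, near *Gm18299*, *Gm23243*, *Gm27989* and *Smyd3*, differences lay between -3.83 and -3.69. KO steps of all 5 lay between -1.08 and 0.44. In the peak near *Gm18299* (chr1:9442082-9442281), KO early ICMs had 2.94, 1.73, 1.55 and 3.09 and Ctrl early ICMs 5.59, 5.59, 5.65 and 6.13.

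Each of the 5 peaks with the most positive differences rose in KO. An intronic peak of *Mum1l1* (chrX:139213476-139213675) had 1.84, 0.51 and 0.26 in KO late morulae and 1.89, 2.30, 2.97 and 2.35 in KO early ICMs, while Ctrl went from 1.97, 2.26 and 2.80 to 0.38, 0.27, 0.37 and 0.23 (difference 3.54 ± 0.68, adjusted p = 0.00378). Its KO call was lost without KO late morula 2, KO late morula 3 or KO early ICM 3. A peak in an exon of *Lrp2* (chr2:69469416-69469615), which encodes the endocytic receptor megalin of the primitive endoderm, had 0.07, 1.39 and 0.01 in KO late morulae and 2.33, 2.70, 2.17 and 1.85 in KO early ICMs, with no overlap. Its Ctrl values moved the other way, from 1.55, 1.94 and 1.24 to 0.11, 0.02, 0.10 and 0.50 (difference 3.17 ± 0.67, adjusted p = 0.0108, lost without KO late morula 3). The peak near *Sept7* with the GATA word shown above rose by 2.10 ± 0.49 in KO (adjusted p = 0.00118), and its Ctrl step was -1.04 ± 0.49 (adjusted p = 0.0977). Its difference of 3.14 (adjusted p = 0.0159) was lost without Ctrl late morula 1, KO late morula 1, KO late morula 3 or Ctrl early ICM 4. The peaks near *Gm3289* and *Cpd* had differences of 3.12 and 3.10, and the call near *Cpd* was lost without Ctrl late morula 1 or KO late morula 3.

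The 5 largest rises without Oct4 were at sites that also rose with it. A peak 17062 bp from the TSS of *Mybph* (chr1:134210420-134210619) had 0.84, 1.23 and 1.56 in KO late morulae and 5.22, 5.32, 4.80 and 6.11 in KO early ICMs, a KO step of 4.15 ± 0.45 (SE; adjusted p = 2.74e-11 by limma), against 2.85 ± 0.45 in Ctrl. The next was at *Dusp6*, described below, and the peak near *Gm37719* with the TEAD word shown above rose by 3.70 ± 0.45, against 3.78 in Ctrl. The peaks with the largest falls had values above 3.9 in every KO late morula library and were at *Cacna1b*, *Dgat1*, *Mob2*, *Ndufb4* and *Gm10804*. An intronic peak of *Cacna1b*, a neuronal calcium channel gene (chr2:24626609-24626808), had 6.25, 5.96 and 6.19 and then 2.91, 1.34, 2.11 and 2.84, a step of -3.83 ± 0.44 in KO and -4.15 ± 0.44 in Ctrl. For the other 4, KO steps lay between -3.46 and -3.28, and all 5 also fell in Ctrl.

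Fewer peaks of pluripotency genes were called opened in KO than in Ctrl. The epiblast and pluripotency list has 24 genes, and 197 peaks lie within 10 kb of their TSSs. In KO 30 of these rose (15.2%, against 8.33% of all peaks) and 10 fell (5.08%, against 10.2%). In Ctrl 77 rose (39.1%, against 14.7%) and 8 fell (4.06%, against 15.0%). The median step was 0.31 in KO and 0.68 in Ctrl, and 2 peaks, at *Utf1* and *Fgf4*, were more negative in the test of the difference. Mean rlog over the list was 3.07 to 3.24 in KO late morulae, 3.24 to 3.50 in KO early ICMs, 3.10 to 3.29 in Ctrl late morulae and 3.82 to 4.04 in Ctrl early ICMs.

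Within the list, single peaks differed, also at the same gene. An intronic peak of *Esrrb* (chr12:86466218-86466417), an orphan nuclear receptor of naive pluripotency, had 1.39, 1.48 and 1.26 in KO late morulae and 4.40, 5.33, 4.98 and 4.41 in KO early ICMs. The KO step was 3.41 ± 0.38 (adjusted p = 1.13e-10) and the Ctrl step 2.92 ± 0.38, and the groups did not overlap in either genotype. Of the 15 peaks near *Esrrb*, however, 2 rose in KO and 10 in Ctrl. The peak near *Sap30*, a subunit of the Sin3 corepressor, with the SOX word shown above, had 1.96, 2.76 and 3.20 in KO late morulae and 3.69, 5.30, 5.46 and 5.10 in KO early ICMs, a rise of 2.24 ± 0.36 against 2.69 ± 0.36 in Ctrl. A peak upstream of *Sall4*, a zinc-finger factor of pluripotent cells (chr2:168769328-168769527), rose by 1.98 ± 0.38 in KO and 1.84 ± 0.38 in Ctrl. A peak within 10 kb of *Dppa3* (chr6:122622415-122622614), a maternal factor also found in naive cells, had 3.19, 3.42 and 3.56 and then 1.41, 0.67, 1.71 and 0.83 in KO. It fell by 2.24 on the log2 scale in KO and by 1.12 in Ctrl.

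At *Utf1*, a chromatin-associated factor of pluripotent cells, the enhancer downstream of the gene (chr7:139945620-139945819), with the OCT-SOX word shown above, was not called in KO. It had 1.86, 1.52 and 1.72 in KO late morulae and 1.37, 1.56, 1.73 and 1.33 in KO early ICMs. Ctrl libraries went from 3.60, 1.88 and 2.83 to 5.41, 5.41, 5.20 and 4.85. The Ctrl step was 2.44 ± 0.41 (adjusted p = 2.39e-06) and the difference -2.65 ± 0.58 (adjusted p = 0.0146), a call lost without Ctrl late morula 2 or KO late morula 3. A peak at *Fgf4* (chr7:144858007-144858206), with an ESRRB word, had 2.82, 1.23 and 1.54 in KO late morulae and 1.08, 1.34, 2.10 and 1.95 in KO early ICMs, and went from 0.60, 1.40 and 1.86 to 3.65, 4.17, 4.30 and 3.97 in Ctrl. *Fgf4* encodes the ligand by which the epiblast signals to the primitive endoderm. The difference was -2.98 ± 0.64 (adjusted p = 0.0121), lost without Ctrl late morula 1 or KO late morula 1. Of the 14 peaks near *Fgf4*, 4 rose in KO and 8 in Ctrl.

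The 9 enhancers that the study marked were each read by the peak centred in them. These were enhancers of *Prdm14*, *Pecam1*, *Pou5f1* (CR4), *Sox2* (SRR2), *Klf4*, *Nanog* (distal and proximal), *Utf1* and *Klf2*. Of these, those of *Klf4* and *Klf2* rose in KO. The *Klf4* enhancer, of a Krüppel-like factor of naive cells (chr4:55477519-55477718), had 2.14, 2.24 and 1.69 in KO late morulae and 3.89, 4.19, 2.85 and 4.26 in KO early ICMs. Its KO step was 1.77 ± 0.36 (adjusted p = 0.000173 by limma), against 2.17 ± 0.36 in Ctrl. Ctrl libraries went from 2.95, 3.78 and 3.97 to 5.52, 5.66, 5.47 and 6.27. KO lay below Ctrl without overlap at both stages. The *Klf2* enhancer rose by 1.27 ± 0.41 (adjusted p = 0.0191), a call lost without KO late morula 1, KO early ICM 2 or KO early ICM 4. In Ctrl the *Prdm14*, *Pecam1*, *Sox2* SRR2, *Klf4*, *Nanog* proximal, *Utf1* and *Klf2* enhancers rose. *Pecam1* encodes a surface protein of the ICM, and its enhancer, with the OCT-SOX word shown above, had 1.47, 1.31 and 1.34 in KO late morulae and 1.33, 3.43, 1.35 and 2.45 in KO early ICMs. Its KO step was 0.76 ± 0.45 (adjusted p = 0.238) and its Ctrl step 2.16 ± 0.45. The *Sox2* SRR2 enhancer had 0.67, -0.05 and 0.57 in KO late morulae and 0.91, 1.21, 1.06 and 2.45 in KO early ICMs, a step of 1.01 ± 0.47 (adjusted p = 0.116) against 2.71 ± 0.47 in Ctrl. Differences of the steps at *Pecam1*, *Sox2* SRR2, *Prdm14* and *Nanog* proximal were -1.39, -1.70, -2.13 and -1.27 and did not pass the test (adjusted p = 0.425, 0.303, 0.171 and 0.308). The *Nanog* distal and CR4 enhancers were open in every library, with values between 6.38 and 7.21 for the former and between 5.45 and 6.84 for the latter, and neither was called in KO or Ctrl.

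In the LIF pathway, peaks of a receptor gene rose without Oct4, and at 1 peak of the co-receptor gene the KO step was below the Ctrl step. LIF binds the receptor Lifr with gp130, encoded by *Il6st*, and acts through Jak kinases and Stat3 to sustain naive pluripotency. The peak at the TSS of *Lifr* (chr15:7090394-7090593), with the TEAD word shown above, had 1.92, 1.17 and 1.78 in KO late morulae and 3.73, 5.37, 4.58 and 4.96 in KO early ICMs. It rose by 3.04 ± 0.45 in KO (adjusted p = 4.23e-07) and by 3.87 ± 0.45 in Ctrl. Of the 10 peaks near *Lifr*, 6 rose in KO and 9 in Ctrl. Upstream of *Il6st*, the peak at chr13:112462545-112462744 with the OCT word shown above, and also a SOX word, had 0.55, -0.19 and 0.45 in KO late morulae and 0.81, 1.12, 0.46 and 0.77 in KO early ICMs. In Ctrl it went from 0.34, -0.05 and 0.98 to 4.82, 4.51, 3.92 and 4.78. Its KO step was 0.52 ± 0.47 (adjusted p = 0.474), its Ctrl step 4.09 ± 0.47 and the difference -3.57 ± 0.66 (adjusted p = 0.00242). None of the 7 peaks near *Il6st* was called in KO, and 5 rose in Ctrl. With 8.33% of all peaks called higher and 10.2% lower in KO, no call among 7 peaks is near the overall share. Their median step was 0.52 in KO and 1.51 in Ctrl, and 1 of them was called in the test of the difference. Peaks at *Stat3* and *Pim3*, a kinase gene downstream of Stat3, rose in KO by 1.70 and 1.00, and a peak near *Pim1*, of the same kinase family, fell by 2.05. Over the 77 peaks of the list, 14 rose (18.2%, against 8.33% of all peaks) and 3 fell (3.90%, against 10.2%) in KO. In Ctrl 28 rose (36.4%, against 14.7%) and 6 fell (7.79%, against 15.0%), and the medians were 0.31 in KO and 0.68 in Ctrl. Within 50 kb of the TSSs, 14.5% rose and 8.18% fell in KO, and the medians were 0.05 and 0.26.

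The FGF and ERK list bears on the inhibitor, since PD0325901 blocks MEK, the kinase upstream of ERK, in the early ICM libraries and not in the late morula libraries. *Dusp6* encodes a phosphatase of ERK and is a known target of the pathway. Its intronic peak (chr10:99265651-99265850) had 1.03, 0.56 and 0.92 in KO late morulae and 3.67, 4.82, 5.23 and 5.91 in KO early ICMs. The KO step was 4.07 ± 0.46 (adjusted p = 1.84e-10) and the Ctrl step 3.37 ± 0.46, with no overlap of stages in either genotype. Peaks at *Fgfr2*, an FGF receptor, and *Etv5*, an ETS factor downstream of FGF signalling, rose in KO by 2.52 ± 0.47 and 1.54 ± 0.31. A peak near *Fgfr1* fell by 2.52. Of the 193 peaks of the list, 34 rose (17.6%, against 8.33% of all peaks) and 11 fell (5.70%, against 10.2%) in KO. In Ctrl 58 rose (30.1%, against 14.7%) and 21 fell (10.9%, against 15.0%), and the medians were 0.32 in KO and 0.39 in Ctrl. Within 50 kb the shares in KO were 11.0% and 8.85%, nearer to those of all peaks, and the medians were 0.06 and 0.17. A peak upstream of *Spred2*, an inhibitor of the pathway, differed between the steps by -2.64 (adjusted p = 0.0327), but the call was lost in 11 of the 14 fits that left out a library (all but those without Ctrl late morula 3, Ctrl early ICM 3 or KO early ICM 4). How far MEKi moved these peaks was not tested.

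Of 116 peaks of primitive endoderm genes, 32 rose (27.6%, against 8.33% of all peaks) and 4 fell (3.45%, against 10.2%) in KO. In Ctrl 35 rose (30.2%, against 14.7%) and 10 fell (8.62%, against 15.0%). The medians were 0.55 in KO and 0.58 in Ctrl, and none was called in the test of the difference. Within 50 kb, 22.2% rose and 5.85% fell in KO, the medians were 0.27 and 0.20, and 2 peaks, one of them the *Lrp2* peak described above, had a more positive difference. Mean rlog over the list was 2.57 to 2.72 in KO late morulae and 2.93 to 3.22 in KO early ICMs, against 3.02 to 3.30 in Ctrl early ICMs. A peak upstream of *Cubn*, which encodes the endocytic receptor cubilin (chr2:13493003-13493202), had 2.46, 1.19 and 2.51 in KO late morulae and 4.44, 4.90, 5.65 and 5.72 in KO early ICMs. It rose by 3.13 ± 0.44 (adjusted p = 1.16e-07) in KO and 1.96 ± 0.44 in Ctrl. A peak near the shared start of *Col4a1* and *Col4a2*, the basement membrane collagens (chr8:11315620-11315819), had 0.82, 0.77 and 0.72 and then 2.62, 4.67, 4.90 and 4.58 in KO, a rise of 3.42 ± 0.51. A peak near the laminin gene *Lamb1* rose by 2.58 ± 0.45 in KO and 1.32 ± 0.45 in Ctrl. Of 5 peaks near *Gata6*, 1 rose in KO and none in Ctrl, and of 2 near *Sox17*, 1 rose in KO and 2 in Ctrl.

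**Figure D5:**
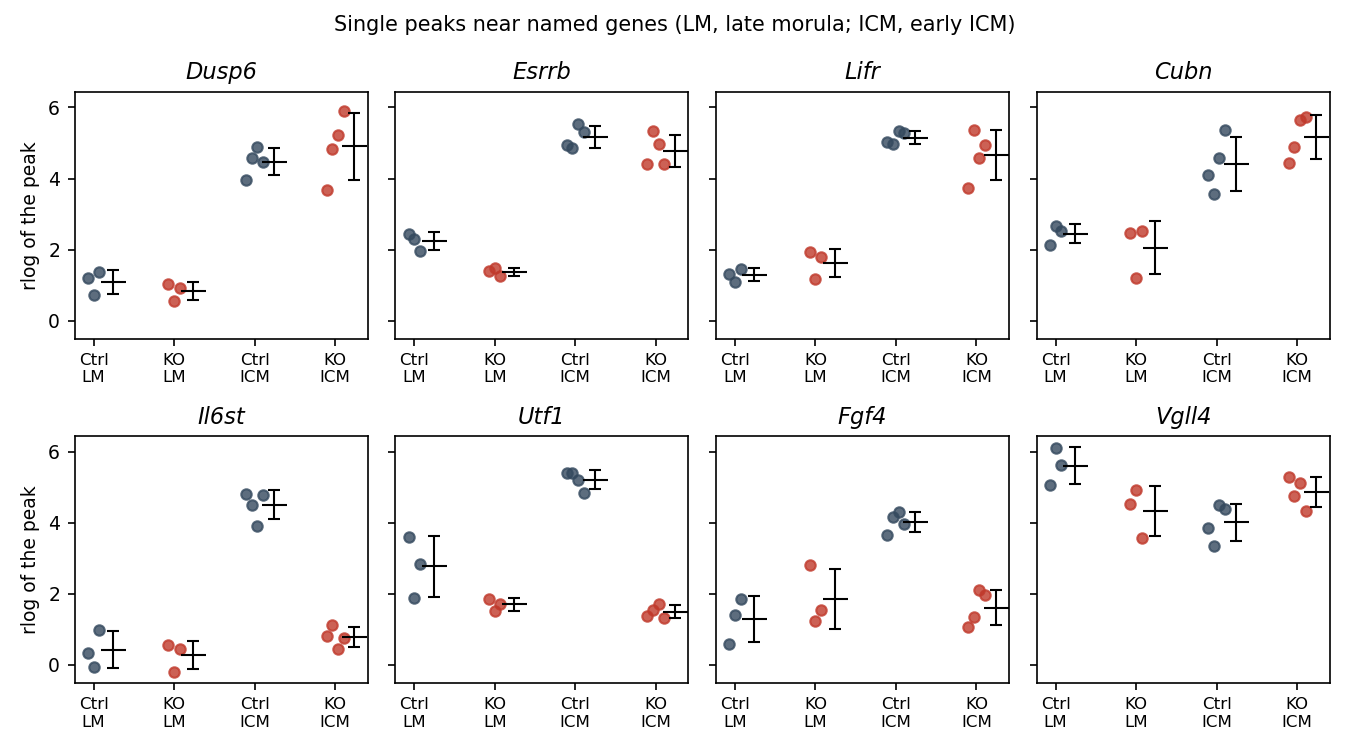
Rlog (vertical axis) of 8 single peaks in each library of the 4 groups, Ctrl in blue and KO in red, with bars for mean ± SD; LM, late morula, and ICM, early ICM. In the upper row (*Dusp6*, *Esrrb*, *Lifr*, *Cubn*) the peaks rise in both genotypes, and in the lower row *Il6st*, *Utf1* and *Fgf4* stay between -0.19 and 2.82 in every KO library, while *Vgll4* falls in Ctrl and has no call in the KO step.

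The trophectoderm list describes the cells that immunosurgery takes away. Over its 156 peaks, 18 rose (11.5%, against 8.33% of all peaks) and 14 fell (8.97%, against 10.2%) in KO. In Ctrl 29 rose (18.6%, against 14.7%) and 28 fell (17.9%, against 15.0%). Mean rlog over the list was 3.28 to 3.43 in KO late morulae and 3.30 to 3.61 in KO early ICMs, and 3.48 to 3.61 and 3.44 to 3.70 in Ctrl. The medians were 0.09 in KO and -0.01 in Ctrl. Rlog values have no true 0, so no marker can be called absent. Of 11 peaks near *Krt8*, a keratin of the outer cells, 6 fell in KO and 6 in Ctrl. The other keratins of the list did not follow this. Of 6 peaks near *Krt18*, none fell in KO and 3 fell in Ctrl. No peak near *Krt7* or *Krt19* was called in KO or Ctrl. The *Krt8* peak with the lowest adjusted p in KO (chr15:101995875-101996074) had 5.76, 5.18 and 5.49 in KO late morulae and 4.21, 3.37, 2.53 and 2.25 in KO early ICMs, a fall of 2.39 against 2.36 in Ctrl. A peak near *Atp1b1*, a sodium pump subunit used in forming the blastocyst cavity (chr1:164463666-164463865), rose in KO by 3.12 ± 0.46, from 1.38, -0.47 and -0.03 to 3.28, 4.14, 2.92 and 3.31, and by 1.55 ± 0.46 in Ctrl. Of 8 peaks near *Cdx2*, 1 fell and none rose in KO, and none of the 8 near *Gata3* was called in KO. Over so few peaks these counts are near the shares of all peaks, 8.33% higher and 10.2% lower. The part of remaining or removed outer cells in these values was not tested.

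In the Hippo and TEAD list, 27 of 199 peaks rose in KO (13.6%, against 8.33% of all peaks) and 14 fell (7.04%, against 10.2%). In Ctrl 36 rose (18.1%, against 14.7%) and 27 fell (13.6%, against 15.0%). *Nf2* encodes an activator of the Hippo kinases, and its peak at chr11:4806067-4806266 had 6.00, 5.71 and 5.62 in KO late morulae and 3.68, 3.44, 3.45 and 4.32 in KO early ICMs. It fell by 2.05 in KO and by 1.99 in Ctrl, and of 19 peaks near the gene 6 fell in KO and 7 in Ctrl. Peaks at *Tead1* and at *Ankrd1*, a target of Yap1, rose in KO by 2.60 ± 0.48 and 2.71 ± 0.47, and a peak near *Yap1* fell by 2.18. The Ctrl steps of these were 0.90, 2.55 and -1.20. *Vgll4*, which encodes a cofactor that competes with Yap1 for Tead, had the list's only call in the test of the difference. Its upstream peak (chr6:114974424-114974623) had 4.52, 4.93 and 3.56 and then 5.28, 4.76, 5.12 and 4.33 in KO, and went from 5.07, 6.11 and 5.63 to 3.84, 3.35, 4.49 and 4.38 in Ctrl. The difference was 2.12 ± 0.50 (adjusted p = 0.0256), and it was lost without Ctrl late morula 2, Ctrl late morula 3, KO late morula 3, KO early ICM 1, Ctrl early ICM 2 or KO early ICM 3.

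Of 121 Nodal and BMP peaks, 9 rose (7.44%, against 8.33% of all peaks) and 6 fell (4.96%, against 10.2%) in KO, and 26 rose (21.5%, against 14.7%) and 21 fell (17.4%, against 15.0%) in Ctrl. Within 50 kb the shares in KO were 7.78% and 8.06%. Peaks at *Smad3*, the intracellular transducer of Nodal signals, and *Id3*, a BMP target, rose in KO by 2.23 ± 0.45 and 1.56 ± 0.33, and a peak near *Id1* fell by 2.08. The *Skil* peak with the OCT-SOX word shown above had a Ctrl step of 2.17 ± 0.44 and a KO step of 0.23 ± 0.44, and the difference of -1.94 did not pass the test (adjusted p = 0.167). Of 98 peaks of genes of the formative state, which follows the naive epiblast, 11 rose (11.2%, against 8.33% of all peaks) and 7 fell (7.14%, against 10.2%) in KO, and 18 rose (18.4%, against 14.7%) and 15 fell (15.3%, against 15.0%) in Ctrl. Among them, an intronic peak of *Otx2*, a homeobox factor of that state, rose in KO by 1.75 ± 0.46 and in Ctrl by 2.60 ± 0.46, and a peak upstream of *Lef1*, a Wnt effector, fell by 2.33 in KO. Of 41 peaks near oocyte and cleavage genes, 5 rose (12.2%, against 8.33% of all peaks) and 4 fell (9.76%, against 10.2%) in KO, and 8 rose (19.5%, against 14.7%) and 7 fell (17.1%, against 15.0%) in Ctrl. Within 50 kb the share that rose in KO was 6.84%, below that of all peaks. A peak near *Zp3*, a gene of the egg coat, had 6.32, 5.62 and 4.14 in KO late morulae and 2.56, 2.48, 2.04 and 3.88 in KO early ICMs and fell by 2.62, against 2.11 in Ctrl.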

How the data were processed

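ATAC-seq libraries of pooled embryos were made for 44 samples in 12 groups. The authors mapped reads to mm10 with Bowtie2, shifted read ends to the Tn5 insertion site, called peaks with MACS2, merged them into windows of 200 bp, counted insertions with BEDTools, and deposited values on a log2 scale from the rlog transformation of DESeq2, over all libraries. Counts and depth are unknown here. All columns were matched to samples.

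Positions are those of GRCm38, with start sites from GENCODE vM21 (141767 transcripts), where the authors used another release. The rlog values of all peaks and libraries were fitted with limma 3.58.1 in R 4.3.3 (lmFit, contrasts.fit, eBayes with a trend, a mean per group, 32 residual degrees of freedom). Tests were two-sided, adjusted by Benjamini-Hochberg over all peaks, and called at an adjusted p under 0.05. Exact permutation tests over libraries were used for the path score. Python 3.11.15, numpy 2.4.6, pandas 2.3.3, scipy 1.17.1 and matplotlib 3.10.9 were used. The fit was tested on simulated data. The members, lists, words and tests were chosen with earlier results of these data known.

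Named peaks were those at *Pou5f1* (within 2 kb), the 9 enhancers whose positions the study lists, the 5 largest called changes in each direction of the KO step (libraries not overlapping) and of the difference, without chromosome 18, and in each gene list up to 4 genes by adjusted p in the KO step and up to 2 in the difference. Not all of them are described. Peaks belong to a gene when their centre is within 10 kb of its TSS; 18 of the 20 Hippo and TEAD genes were found in the annotation. Remarks on further peaks of a named gene, and on *Gata6*, *Sox17*, *Cdx2*, *Gata3*, *Krt7*, *Krt18* and *Krt19*, were chosen after their values were seen.

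KO and Ctrl libraries of a stage with the same number deviated from their group means together (r between 0.109 and 0.192 across peaks), each best with its own number. The main fit did not use these numbers. They served as pairs within a stage only in an alternative fit and in the test of the path score gaps, both chosen after the data were seen. The labels do not say what a number marks. Late morula and early ICM libraries with the same number did not deviate together. Alternatives were the fit with the compared libraries only, a filter on low values, median centring, quantile normalization, a limit on size, eBayes without a trend, blocks of replicate numbers, wider windows and leaving out each library.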

Additional observations from a re-analysis of the deposited data

Results flagged for a closer look

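At 444 peaks the KO step was more negative than the Ctrl step and at 84 more positive, by the limma test of the difference itself, as described above. In 11 of the 154 sets of 4 libraries examined, a library stood apart from the other 3 by a gap above the 95% critical value of Dixon for the range. Chance alone is known to do this in about 1 set in 20. In the KO early ICM group these were KO early ICM 1 in the mean over the peaks that opened on the independent axis (2.85), near *Cpd* (1.98), at *Pim3* (5.63) and at *Col4a1* (2.62), and the third library near *Gm38061* (1.98). In the Ctrl early ICM group they were the fourth library near *Gm18299* (6.13), *Fgf5* (0.38), *Fgfr2* (4.98) and *Sap30* (6.70), and the second library at a further *Pou5f1* peak (3.07) and near *Zp1* (0.45). In all 4 ICM groups of the *Pou5f1* line, library 1 had the lowest path score.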

How the results depend on the processing

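The KO step of the path score, of the opened and of the closed peaks kept its sign in each fit that was run, but for closed peaks the KO share of the Ctrl step went from 101% to 96.8% with quantile normalization and 93.6% with median centring, and in KO the larger of the opening and closing counts depended on the scaling, as given above. Among the stronger peaks, 5669 peaks fell in KO, 13385 rose and 9557 fell in Ctrl, 3604 fell in both, the difference was called at 263 and 55, and the median KO step was 83.2% of Ctrl in closed and 80.0% in opened peaks, against 101% and 66.5%. Fewer peaks are tested there, and the step helps to decide which. With only the compared libraries in the fit, 128 peaks had a more positive difference; the cause was not tested. Leaving out each library in turn gave 7547 to 14485 peaks that rose and 9559 to 16277 that fell in KO, 15846 to 22714 and 15800 to 23212 in Ctrl, 5030 to 8578 and 5437 to 9118 in both, and 95 to 449 negative and 8 to 112 positive differences. The KO share of the Ctrl step was 81.4 to 92.1% for the path score, 62.9 to 73.7% for opened and 96.4 to 108% for closed peaks.

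With the replicate number as a block across stages, 13359 peaks rose and 15513 fell in KO and the differences were 487 and 107, with a path score of 85.1%. Late morula and early ICM libraries of one number correlated between -0.020 and 0.019 in KO and between -0.023 and 0.038 in Ctrl. The pairing of KO with Ctrl within a stage, added after the data were seen, gave 1053 and 408 differences and left the path score share at 85.5%. The difference of the steps then had p = 0.0286 (exact permutation of 7 gaps). The p = 0.511 from genotypes permuted within stages (exact permutation) cannot decide it, as given above. Among the named peaks, pairing added the call at *Fgf5* (adjusted p = 0.0404 by limma, against 0.0715).

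Of the 50 named peaks called in KO, 6 lost the call when some library was left out, and of the 15 called in the difference 7 did. Those not given above are *Pou3f1* (without KO early ICM 2), *Ooep* (without KO late morula 1), *Khdc3* and *Gdf9*. Within 1 kb of a TSS lay 16.2% of the peaks that rose and 10.3% of those that fell, against 19.5% of all peaks. Depth is unknown, and weak peaks carry shrunken values.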
